A study of Gossypium herbaceum with 12 samples.

Results

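Asparagine synthase and L-asparaginase, the enzymes that make and break down the amino acid asparagine, were followed in cotton leaves through 8 of the 24132 probe sets of the Affymetrix Cotton Genome array. A probe set is a group of short oligonucleotides that together report 1 transcript or a few close relatives. The 8 were those whose annotation, in the study's 4 lists of genes up-regulated in 1 accession in 1 condition, named either enzyme: 5 were annotated as asparagine synthase and 3 as L-asparaginase. The annotation is the best Arabidopsis match of each probe set.

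The study set the drought tolerant accession Vagad of *Gossypium herbaceum* against the drought sensitive accession RAHS-14. Leaf RNA came from month-old plants in earthen pots in a greenhouse, and 12 plants were hybridized, 1 per array. They formed 4 groups of 3 plants: Vagad under drought, Vagad irrigated, RAHS-14 under drought and RAHS-14 irrigated. Drought was imposed by withholding water with watering on alternate weeks, and no mutation or transgene is named for any plant. Each accession stands for 1 genotype, and the leaf is a mixture of cell types, so a lower signal from fewer cells of a type cannot be told apart from a lower level per cell.

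Asparagine synthase moves the amide nitrogen of glutamine onto aspartate and uses ATP to do so. The product carries much nitrogen for little carbon, and plants use it to store nitrogen and to move it between organs, above all in the dark, in senescence and under stress. L-asparaginase hydrolyses asparagine back to aspartate and ammonia, which glutamine synthetase then captures again.

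The values are MAS5 signals on a linear scale, and the trimmed mean signal of an array was set near 500.1. Vagad drought plants 1 and 2 were unlike the remaining 10 plants. The median signal of their arrays was 323 and 346, while those 10 lay between 61.4 and 74.7. Their median Spearman correlations with those 10 were 0.60 and 0.44, against 0.94 to 0.96 among the 10. The log2 ratio of 3' to 5' signal over 6 cotton control probe set pairs was 0.60 and -0.71 on these 2 arrays and 0.90 to 2.05 on the rest. Their part in the results was not tested. Every comparison is therefore given over all 12 arrays and over the 10 arrays without these plants, where Vagad drought plant 3 alone stands for its group and its spread is assumed to equal that of the other groups. Levels and differences below are log2 values after quantile normalization unless called signals, and errors of differences are standard errors of the limma fit. A probe set was called when its limma p, adjusted over all probe sets tested, was under 0.05 and its fold was at least 2. Of the 8 probe sets, 7 were bright enough to be tested and 1 asparaginase was not.

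How a probe set entered the lists decides which comparison can test it. All 5 synthase probe sets came from the list of genes up-regulated in irrigated RAHS-14, so by that list's name the drought arrays did not choose them. Asparaginases Gra.2835.2.S1_s_at and Ghi.10091.1.A1_s_at came only from the list of genes up-regulated in Vagad under drought, so by its name the irrigated arrays did not choose them. The third asparaginase, Gra.1548.1.S1_s_at, was in the Vagad list of both conditions. The folds that made the lists came from another summary of the arrays and are not among the values used here. Which arrays entered each list could therefore not be checked, and no values on either side of the list threshold are given. Whether the drought p-values of the synthases below are free of that choice is thus not known. The endings s_at and x_at mark probe sets whose probes can bind several related transcripts, and signal shared between members of the gene family could not be separated.

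Asparagine synthase Gra.1614.2.S1_x_at was the member that differed most clearly between the accessions under drought. Its signal was 1027, 782 and 1416 in Vagad drought plants 1, 2 and 3, against 3447, 3301 and 3019 in the RAHS-14 drought plants. It was 2036, 1962 and 1878 in irrigated Vagad, against 1478, 1562 and 1733 in irrigated RAHS-14. Every Vagad drought plant lay below every RAHS-14 drought plant, a state that 22% of all probe sets shared over 12 arrays, and it held for plant 3 as well as for plants 1 and 2. Over 12 arrays, Vagad was lower than RAHS-14 under drought by a log2 difference of -1.58 ± 0.30, a fold of 2.99 (limma, adjusted p = 0.0367, n = 3 each). Over 10 arrays the difference was -1.20 ± 0.12, a fold of 2.3 (limma, adjusted p = 0.00042, Vagad drought n = 1). Among all probe sets tested the median difference was -0.65 over 12 arrays and 0.01 over 10.

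This was 1 synthase called of 5 tested, and it was called lower in Vagad, where 1.27% of all probe sets were called lower over 12 arrays and 5.11% over 10. Leaving out any single irrigated or RAHS-14 plant ended the call over 12 arrays, with limma's adjusted p up to 0.177. It was kept when any 1 Vagad drought plant was left out. Calls among all probe sets moved alike. They were 284 over 12 arrays and 10 to 83 without 1 irrigated or RAHS-14 plant. Without Vagad drought plant 1, 2 or 3 they were 482, 965 and 5875. The difference stayed between -1.77 and -1.26 throughout.

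The drought responses of Gra.1614.2.S1_x_at in the accessions ran in opposite directions. In Vagad its level under drought differed from that in irrigated plants by -0.85 ± 0.30 over 12 arrays and by -0.45 ± 0.12 over 10, both under the fold of 2. In RAHS-14 it differed by 1.02 ± 0.30 over 12 arrays and by 1.06 ± 0.08 over 10, a fold of 2.08. Neither pair of groups overlapped. Over 12 arrays, drought and irrigated plants were apart in this way for 20.1% of all probe sets, lower under drought, in Vagad and for 27.1%, higher under drought, in RAHS-14. These responses share arrays with the comparison that chose the probe set and are a description. On the 10 arrays its levels ran from 11.68 ± 0.09 (SD, n = 3) in drought RAHS-14 through 10.93 ± 0.05 in irrigated Vagad, then 10.63 ± 0.12 in irrigated RAHS-14, to 10.48 in Vagad drought plant 3. Plant 3 lay within 2 SD of the irrigated RAHS-14 mean.

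**Figure D1:**
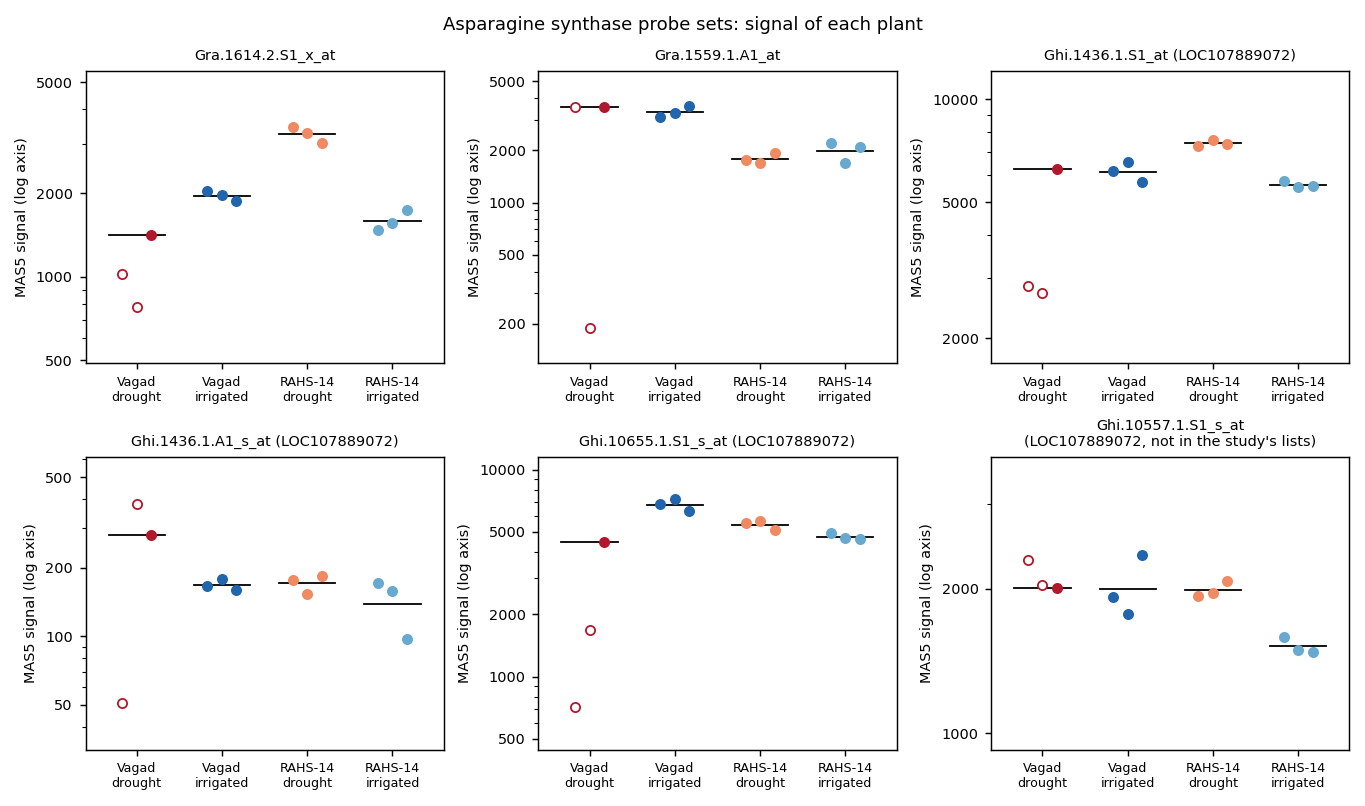
MAS5 signal (log axis) of each plant for the 5 asparagine synthase probe sets and a sixth probe set of the same locus, with a line at the geometric mean of the filled points and open circles for Vagad drought plants 1 and 2. Gra.1614.2.S1_x_at sat at 3019 to 3447 in RAHS-14 under drought, above the other 3 groups. In these signals, which are not normalized, both open circles lay far below plant 3 for Ghi.10655.1.S1_s_at and Ghi.1436.1.S1_at.

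The synthase Gra.1559.1.A1_at, annotated as the glutamine-hydrolyzing form, was split by a single plant. Its signal was 3544, 189 and 3584 in the Vagad drought plants, against 1757, 1699 and 1926 in the RAHS-14 drought plants. Irrigated plants had 3118, 3276 and 3607 in Vagad, against 2212, 1702 and 2094 in RAHS-14. Only Vagad drought plant 2 fell below the RAHS-14 plants, and plants 1 and 3 were above all of them. Over 12 arrays the accessions differed under drought by -0.84 ± 1.29 (limma, adjusted p = 0.633, n = 3 each), a size far inside its error. Over 10 arrays the difference was 0.97 ± 0.15 with Vagad higher (limma, adjusted p = 0.00344, Vagad drought n = 1), a fold of 1.96 that falls short of 2. Leaving out Vagad drought plant 2 alone turned it to 1.20, which was called (limma, adjusted p = 0.0113, Vagad drought n = 2), with Vagad higher. In that setting 407 of 12738 probe sets were called higher in Vagad.

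With drought, Gra.1559.1.A1_at hardly moved in either accession on the 10 arrays, by 0.09 ± 0.15 in Vagad and by -0.16 ± 0.11 in RAHS-14. On 12 arrays these differences were -1.69 ± 1.29 in Vagad and -0.15 ± 1.29 in RAHS-14. Its levels on the 10 arrays were 11.77 in Vagad drought plant 3 and 11.68 ± 0.10 in irrigated Vagad, then 10.97 ± 0.19 (SD, n = 3) in irrigated RAHS-14 and 10.81 ± 0.09 in the RAHS-14 drought plants. The Vagad levels did not differ from each other beyond their spread, nor did those of RAHS-14.

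The other 3 synthase probe sets carry the same locus in the platform annotation, LOC107889072, and are not counted as separate genes. Whether they report 1 gene was not tested. Ghi.10655.1.S1_s_at had signals of 710.2, 1683 and 4451 in Vagad drought plants 1, 2 and 3, against 5498, 5640 and 5135 in RAHS-14 under drought. Irrigated Vagad had 6807, 7183 and 6308, against 4913, 4691 and 4609 in irrigated RAHS-14. All 3 Vagad drought plants were below every other plant, plants 1 and 2 by much more than plant 3. The drought difference between the accessions was -1.39 ± 0.53 over 12 arrays (limma, adjusted p = 0.095, n = 3 each) and -0.36 ± 0.14 over 10 (limma, adjusted p = 0.0808, Vagad drought n = 1). With each plant left out in turn from the 12 arrays it was -1.88 to -0.61. It was called only without Vagad drought plant 3 (limma, adjusted p = 0.00875, Vagad drought n = 2). That setting kept only plants 1 and 2 in the group, and 4474 of 12779 probe sets were called lower in Vagad. In Vagad the level under drought differed from that in irrigated plants by -1.71 ± 0.53 over 12 arrays and -0.66 ± 0.14 over 10, and in RAHS-14 by 0.16 ± 0.53 and 0.16 ± 0.10.

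Ghi.1436.1.S1_at of this locus showed a smaller gap. Its signals were 2847, 2702 and 6249 in Vagad under drought, against 7295, 7579 and 7422 in RAHS-14 under drought. Irrigated plants had 6155, 6562 and 5743 in Vagad, against 5749, 5536 and 5568 in RAHS-14, and these groups overlapped. Vagad drought plant 3 lay within the irrigated Vagad range, and the RAHS-14 drought plants stood above all others. The drought difference between the accessions was -0.59 ± 0.22 over 12 arrays (limma, adjusted p = 0.0935, n = 3 each), close to the median of all probe sets, and -0.35 ± 0.12 over 10 (limma, adjusted p = 0.0687, Vagad drought n = 1). RAHS-14 under drought was higher than irrigated RAHS-14 by 0.35 ± 0.22 over 12 arrays and 0.33 ± 0.09 over 10.

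Ghi.1436.1.A1_s_at was the dimmest synthase member. Vagad under drought gave signals of 50.9, 383 and 279, against 178, 154 and 183 in RAHS-14 under drought. Irrigated Vagad gave 166, 178 and 160.1, against 172, 158 and 97.8 in irrigated RAHS-14. The Vagad drought plants spanned the whole range of the other groups, with plant 1 below its own array's median. The drought difference between the accessions was -1.19 ± 0.81 over 12 arrays (limma, adjusted p = 0.29, n = 3 each) and turned to 0.84 ± 0.26 over 10 (limma, adjusted p = 0.0445, Vagad drought n = 1), a fold of 1.79. With each plant left out in turn from the 12 arrays it was -2.10 to -0.03. It was called only without Vagad drought plant 3 (limma, adjusted p = 0.0253, Vagad drought n = 2), where 4474 of 12779 probe sets were called lower in Vagad.

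Another probe set of the locus, Ghi.10557.1.S1_s_at, was not in the study's lists and was looked at after its values had been seen. Its signals were 2290.1, 2037 and 2009 in Vagad under drought, against 1928, 1961 and 2076 in RAHS-14 under drought. Irrigated Vagad had 1925, 1771 and 2346, against 1585, 1490 and 1479 in irrigated RAHS-14. Once normalized over 12 arrays, its levels in Vagad drought plants 1 and 2 were 11.631 and 11.803, above the 10.889 of plant 3. Ghi.10655.1.S1_s_at of the same locus was lower in plants 1 and 2, at 9.412 and 11.444 against 11.954 in plant 3. Ghi.1436.1.S1_at was only slightly lower there, at 11.932 and 12.235 against 12.415, although its signals were far lower. The accessions differed under drought by 0.55 ± 0.28 over 12 arrays (limma, adjusted p = 0.166, n = 3 each) and by 0.00 ± 0.15 over 10 (limma, adjusted p = 1, Vagad drought n = 1). RAHS-14 under drought was above irrigated RAHS-14 by 0.38 ± 0.28 over 12 arrays (limma, adjusted p = 1, n = 3 each) and by 0.40 ± 0.11 over 10 (limma, adjusted p = 0.0177).

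Among irrigated plants, the comparison that chose them, the synthase probe sets are described only. In these signals Gra.1614.2.S1_x_at, Gra.1559.1.A1_at, Ghi.10655.1.S1_s_at and Ghi.1436.1.A1_s_at were higher in Vagad than in RAHS-14, by 0.29, 0.70, 0.48 and 0.26 over 12 arrays, with groups apart once normalized. The difference of Ghi.1436.1.S1_at was 0.05, with overlap. The list that held all 5 was of genes up-regulated in irrigated RAHS-14, so the direction here is opposite to the one that list's name gives. None was called over 12 or 10 arrays, where 0.202% and 3.74% of all probe sets were called. Groups apart with Vagad higher were found for 20.1% of all probe sets over 12 arrays. Under drought over 12 arrays all 5 were lower in Vagad, so RAHS-14 was the higher accession there, as in the list's name. The drought arrays may thus have entered the choice, and the synthases' drought p-values cannot be taken as independent of it. Over 10 arrays Gra.1559.1.A1_at and Ghi.1436.1.A1_s_at were higher in Vagad under drought.

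Asparaginase Gra.2835.2.S1_s_at varied widely between plants. Its signals were 32588, 17799 and 4869 in Vagad drought plants 1, 2 and 3, against 1346, 1495 and 1676 in irrigated Vagad. RAHS-14 had 3118, 3337 and 3002 under drought, against 2989.8, 2678 and 2768 when irrigated. All Vagad drought plants were above every other plant and all irrigated Vagad plants below every other plant. In plants 1 and 2 the signal was many times that of plant 3.

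Ghi.10091.1.A1_s_at, another asparaginase, followed the same order of groups outside plants 1 and 2. Vagad under drought had signals of 4019.7, 3327 and 8380.2, against 2624, 2921 and 3001 in irrigated Vagad. RAHS-14 had 5711, 5809 and 5902 under drought, against 5014, 5210.3 and 5177 when irrigated. Plant 3 was the highest of all plants, and plants 1 and 2 had deposited signals between those of irrigated Vagad and RAHS-14. Once normalized over 12 arrays, their levels were 12.28 and 12.49, against 12.25 to 12.46 in the 6 RAHS-14 plants.

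**Figure D2:**
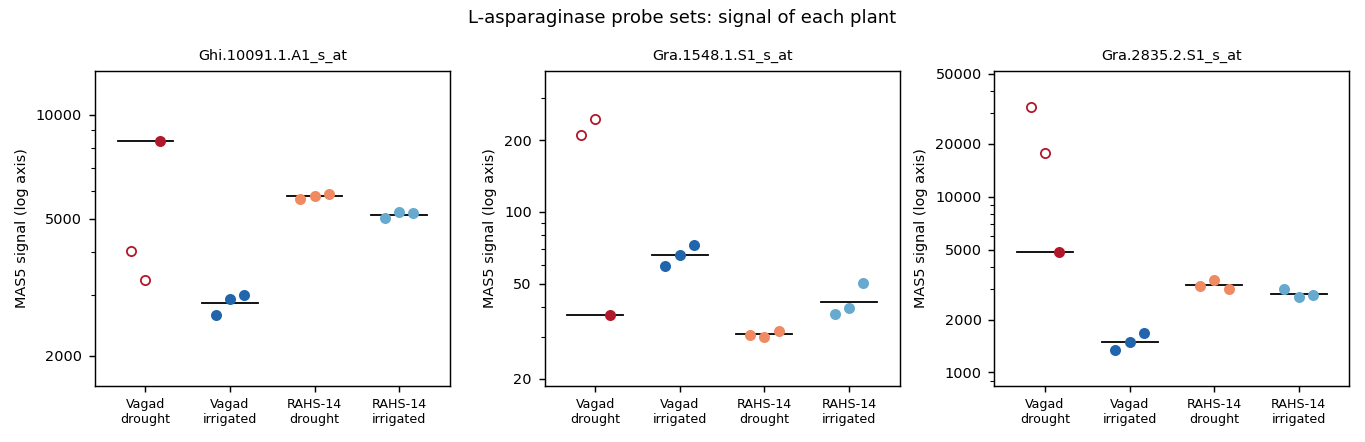
MAS5 signal (log axis) of each plant for the 3 asparaginase probe sets, with a line at the geometric mean of the filled points and open circles for Vagad drought plants 1 and 2. Irrigated Vagad was the lowest group for Gra.2835.2.S1_s_at (1346 to 1676) and Ghi.10091.1.A1_s_at (2624 to 3001), and Gra.1548.1.S1_s_at was dim in every group.

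In irrigated plants, which by the list's name did not choose them, both asparaginases were lower in Vagad than in RAHS-14, without overlap. That the irrigated arrays played no part in the choice could not be checked. The difference of Ghi.10091.1.A1_s_at was -0.92 ± 0.22 over 12 arrays (limma, adjusted p = 0.336, n = 3 each) and -0.91 ± 0.07 over 10 (limma, adjusted p = 6.14e-05, n = 3 each). That of Gra.2835.2.S1_s_at was -0.88 ± 0.46 over 12 arrays (limma, adjusted p = 1, n = 3 each) and -0.91 ± 0.10 over 10 (limma, adjusted p = 0.000375, n = 3 each). Both folds were 1.88 over 10 arrays, short of 2, so neither asparaginase was called over 12 or 10 arrays, where 0.0621% and 1.88% of all probe sets were called lower in Vagad. Groups apart with Vagad lower were found for 19.2% of all probe sets over 12 arrays. All 6 plants of this comparison were among the 10 arrays. The 2 fits differ in the spread they share: its prior SD was 0.52 over 12 arrays and 0.13 over 10.

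With drought, both asparaginases were higher than in irrigated plants of Vagad, a description that shares arrays with the comparison that chose them. Gra.2835.2.S1_s_at was higher by 2.90 ± 0.46 over 12 arrays and by 1.62 ± 0.14 over 10, folds of 7.48 and 3.08. Ghi.10091.1.A1_s_at was higher by 1.16 ± 0.22 over 12 arrays and by 1.40 ± 0.10 over 10, folds of 2.23 and 2.63. Both were past the limits of a call over 12 and 10 arrays, as were 1.41% and 4.47% of all probe sets, and the groups were apart as for 8.59% of all probe sets higher over 12 arrays. Nothing is read from these counts, since the members were listed for being up-regulated in Vagad under drought. With each plant left out in turn from the 12 arrays, the difference of Gra.2835.2.S1_s_at was 2.50 to 3.54, past the limits except without any 1 irrigated Vagad plant. That of Ghi.10091.1.A1_s_at was 1.02 to 1.26, past them only without any 1 Vagad drought plant. Calls among all probe sets were 489 over 12 arrays, 50 to 90 without 1 irrigated Vagad plant and 150 to 153 without 1 RAHS-14 plant.

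In RAHS-14 the asparaginases differed little between drought and irrigated plants. The difference was 0.17 ± 0.46 over 12 arrays and 0.17 ± 0.10 over 10 for Gra.2835.2.S1_s_at, and 0.16 ± 0.22 and 0.15 ± 0.07 for Ghi.10091.1.A1_s_at. Of the 7 tested members, 0 were called in RAHS-14 over 12 arrays, where 0.885% of all probe sets were called. Over 10 arrays the synthase Gra.1614.2.S1_x_at alone was past the limits of a call, as were 3.46% of all probe sets, higher, and likewise from the 12 arrays without Vagad drought plant 2 or 3. The drought response of 0 of the 7 was called different between the accessions over 12 arrays, where 0.124% of all probe sets were, and that of 3 of the 7 over 10 arrays, where 8.75% were. The 3 were both asparaginases, with Vagad minus RAHS-14 differences of 1.45 and 1.25, and Gra.1614.2.S1_x_at, with -1.50. These values use the arrays that chose the members and are a description.

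On the 10 arrays the levels of Gra.2835.2.S1_s_at were 12.17 in Vagad drought plant 3, 11.63 ± 0.07 in RAHS-14 under drought, 11.46 ± 0.10 in irrigated RAHS-14 and 10.55 ± 0.16 in irrigated Vagad (SD, n = 3). Ghi.10091.1.A1_s_at had the same order, with 12.85, 12.52 ± 0.01, 12.37 ± 0.03 and 11.46 ± 0.10. The RAHS-14 groups were neighbours in both orders and lay close together without overlap. Under drought, the comparison that chose them, Vagad was above RAHS-14 by 1.86 ± 0.46 over 12 arrays and 0.54 ± 0.14 over 10 for Gra.2835.2.S1_s_at and by 0.08 ± 0.22 and 0.33 ± 0.10 for Ghi.10091.1.A1_s_at.

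The third asparaginase, Gra.1548.1.S1_s_at, was above its array's median only in irrigated Vagad plants 2 and 3 and was not tested. Its signals were 210.1, 244 and 37.1 in Vagad drought plants 1, 2 and 3, against 59.4, 65.8 and 72.9 in irrigated Vagad. RAHS-14 had 30.6, 29.9 and 31.5 under drought, against 37.2, 39.6 and 50.3 when irrigated. Plants 1 and 2 had the highest signals, yet each was below the median of its own array, and after normalization the levels of the Vagad drought plants were 5.99, 6.15 and 5.96, against 6.74, 6.84 and 6.99 in irrigated Vagad. In both conditions the signal of every Vagad plant was above that of every RAHS-14 plant of that condition.

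**Figure D3:**
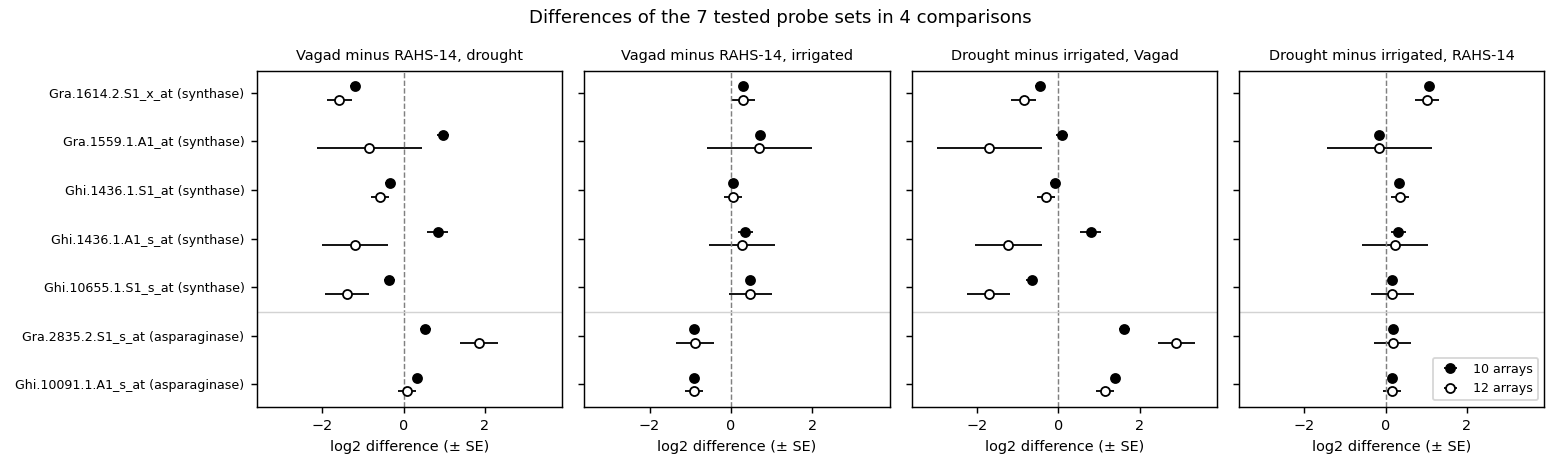
Log2 differences (± SE of the limma fit) of the 7 tested probe sets in 4 comparisons, over 10 arrays (filled) and over 12 arrays (open). Gra.1559.1.A1_at and Ghi.1436.1.A1_s_at changed sides between the fits in the drought comparison of the accessions, whereas Gra.1614.2.S1_x_at stayed at -1.20 and -1.58.

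Over the 10 arrays, Gra.2835.2.S1_s_at and Ghi.10091.1.A1_s_at had a Pearson correlation of 0.99, which was 0.60 over 12 arrays. The synthases Gra.1614.2.S1_x_at and Ghi.1436.1.S1_at had 0.88 over 10 arrays and 0.78 over 12. Ghi.10655.1.S1_s_at ran opposite to both asparaginases, with -0.85 for Ghi.10091.1.A1_s_at and -0.86 for Gra.2835.2.S1_s_at over 10 arrays. The 3 synthase members of LOC107889072 were not alike on the 10 arrays, with correlations of 0.27, -0.01 and -0.11, and were alike over 12, with 0.77, 0.71 and 0.92. These correlations describe plants that share accession and treatment.

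The probe sets whose profile was most like that of the members were sought among 1071 annotated and tested ones over the 10 arrays. All 1071 came from the study's lists, which were chosen on these same arrays, so high correlations are not independent evidence of a link. The 5 synthases were not alike, with correlations from -0.50 for Gra.1559.1.A1_at and Gra.1614.2.S1_x_at to 0.88 for Gra.1614.2.S1_x_at and Ghi.1436.1.S1_at, so their mean describes no single member. For the mean of the 5 synthases, the 5 highest correlations held 3 probe sets of naringenin-chalcone synthase, the enzyme that opens flavonoid synthesis, at 0.92, 0.90 and 0.89. The others were a LOB domain protein at 0.91 and a DC1 domain protein at 0.90. For the mean of the 2 tested asparaginases they were a heat shock cognate protein at 0.98, a glutaredoxin family protein and the nitrate transporter NTP2 at 0.97 each, a fatty acid elongase at 0.96 and a peroxisomal membrane protein at 0.95.

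Other nitrogen genes were drawn by keyword from the study's lists, which were chosen on these same arrays and so are not independent evidence of a direction. Of 9 probe sets for nitrate and ammonium uptake and reduction, 7 were tested. Under drought against irrigation in RAHS-14, 2 were called lower over 12 arrays and 4 over 10, where 0.466% and 4.63% of all probe sets were called lower, and the median of the 7 was -0.78 and -1.02 against 0.01 and 0.00 for all probe sets. In Vagad, 1 was called higher in both fits, where 1.41% and 4.47% of all probe sets were, and the median of the 7 was 0.48 over 12 arrays and -0.10 over 10, against -0.63 and 0.00 for all probe sets.

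Nitrate reductase Gra.718.1.S1_s_at, which turns nitrate into nitrite, had signals of 99.3, 142 and 102 in RAHS-14 under drought, against 534, 545 and 566 in irrigated RAHS-14. In Vagad it had 649.8, 655.5 and 206 under drought, against 241, 185 and 177 when irrigated. Its drought difference in RAHS-14 was -1.83 ± 0.30 over 12 arrays (limma, adjusted p = 0.0205, n = 3 each) and -2.30 ± 0.16 over 10. In Vagad it was 0.69 over 12 arrays and 0.10 over 10, and the signal of plant 3 lay within the range of the irrigated plants. Vagad was above RAHS-14 under drought by 1.37 ± 0.30 (limma, adjusted p = 0.0471, n = 3 each), where 0.939% of all probe sets were called higher. Over 12 arrays both calls were lost with any single irrigated or RAHS-14 plant left out. Limma's adjusted p rose up to 0.149 for the drought difference and 0.189 for the accessions. Calls among all probe sets were then 27 to 69 and 10 to 83, against 114 and 284 over 12 arrays.

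The nitrate transporter NTP2, GhiAffx.58791.1.A1_at, had the same order of groups as the asparaginases. It had signals of 1449, 726 and 911 in Vagad under drought, against 76.9, 76.4 and 83.1 in irrigated Vagad. RAHS-14 had 392, 386 and 416 under drought, against 242, 252 and 215 when irrigated. The Vagad drought difference was 2.94 ± 0.39 over 12 arrays (limma, adjusted p = 0.00507, n = 3 each) and 3.49 ± 0.13 over 10, and it kept its call without any 1 plant.

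An ammonia transporter, Ghi.6498.1.S1_s_at, had signals of 3743, 3335 and 3449 in RAHS-14 under drought, against 9102, 9602 and 8892 in irrigated RAHS-14. Its difference was -1.58 ± 0.24 over 12 arrays (limma, adjusted p = 0.0133, n = 3 each) and -1.49 ± 0.08 over 10. The call over 12 arrays was lost without any 1 RAHS-14 plant, with limma's adjusted p up to 0.113. Calls among all probe sets were then 27 to 32, against 114 over 12 arrays.

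**Figure D4:**
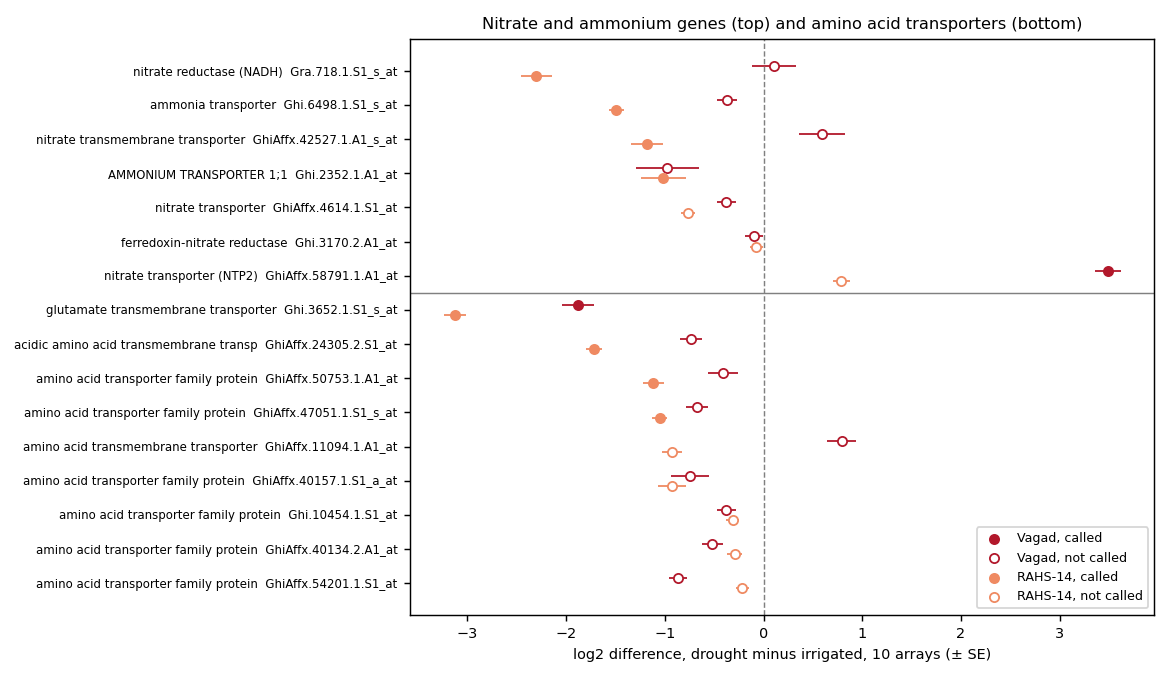
Log2 drought minus irrigated difference (± SE) over 10 arrays for the tested nitrate and ammonium genes and amino acid transporters, Vagad above RAHS-14 in each pair, with filled points for called probe sets. In RAHS-14, 4 probe sets of each list were called lower, and in Vagad the nitrate transporter NTP2 was called higher at 3.49.

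Amino acid transporters carry asparagine and other amino acids across membranes, and 9 of 10 were tested. None was called in any comparison over 12 arrays. Over 10 arrays 4 were called lower under drought in RAHS-14 and 1 in Vagad, where 4.63% and 5.77% of all probe sets were called lower, and the medians were -0.93 in RAHS-14 and -0.67 in Vagad. The glutamate transporter Ghi.3652.1.S1_s_at was called in both, with -1.88 ± 0.16 in Vagad and -3.12 ± 0.11 in RAHS-14. Between the accessions under drought, 3 were called higher in Vagad over 10 arrays, where 3.41% of all probe sets were called higher. These values rest on Vagad drought plant 3 alone. The difference of GhiAffx.24305.2.S1_at was 1.10 over 10 arrays and turned to -1.48 over 12. That of Ghi.3652.1.S1_s_at was 1.12 over 10 arrays and 0.41 over 12, and that of GhiAffx.11094.1.A1_at was 1.45 and 0.08.

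Aminotransferases move amino groups between amino acids and keto acids, and 3 of 5 were tested. None was called over 12 arrays. Over 10 arrays, where Vagad drought n = 1, an alanine-glyoxylate aminotransferase, GhiAffx.42636.1.S1_s_at, was higher under drought by 1.28 ± 0.16 in Vagad and 1.31 ± 0.12 in RAHS-14. Once normalized over 12 arrays, its levels in Vagad drought plants 1, 2 and 3 were 5.76, 8.51 and 9.38, against 8.23, 8.21 and 8.42 in irrigated Vagad. The size of the Vagad rise over 10 arrays is thus that of plant 3, and plant 1 was below the irrigated plants. The 6 senescence-associated probe sets, a process in which asparagine synthase is known to act, were all tested. Under drought, 1 was called lower in Vagad than in RAHS-14 over 12 arrays, where 1.27% of all probe sets were called lower. The medians of the 6 were -1.69 over 12 arrays and -2.55 over 10, against -0.65 and 0.01 for all probe sets. The 10-array median rests on Vagad drought plant 3 alone, and the plants were not alike. Normalized over 12 arrays, Ghi.3440.1.A1_at was 4.11, 8.27 and 4.11 in Vagad drought plants 1, 2 and 3, with plants 1 and 3 at the lowest level allowed. RAHS-14 drought plants had 6.81 to 6.89. Ghi.743.1.S1_at was below RAHS-14 in all 3 plants.

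Of the senescence-associated probe sets, Ghi.710.1.S1_s_at was called higher under drought in RAHS-14, by 4.66 ± 0.85 over 12 arrays (limma, adjusted p = 0.0352, n = 3 each), where 0.419% of all probe sets were called higher. Its signals there were 449, 436 and 511, against 5.92, 16.7 and 6.90 in irrigated RAHS-14. After normalization 2 of those 3 irrigated plants were at the floor, the lowest level the fit allows, so the size of this difference is set by the floor and is not an exact value. Vagad had 627, 1002 and 33.1 in drought plants 1, 2 and 3, against 71.8, 101 and 84.5 when irrigated. Plants 1 and 2 were thus above every RAHS-14 drought plant and plant 3 below every irrigated Vagad plant. Leaving out any single irrigated or RAHS-14 plant ended the call in RAHS-14, with limma's adjusted p up to 0.193. Calls among all probe sets in RAHS-14 were then 27 to 69, against 114 over 12 arrays. Ghi.743.1.S1_at was lower in Vagad than in RAHS-14 by -4.99 ± 0.72 under drought (limma, adjusted p = 0.0146, n = 3 each), a call that was lost without any 1 RAHS-14 drought plant, and by -4.84 ± 0.72 when irrigated (limma, adjusted p = 0.0311), a call lost with any single irrigated or RAHS-14 plant left out. Limma's adjusted p rose to 0.0988 under drought and to 0.279 when irrigated. Calls among all probe sets were then 10 to 12 under drought and 7 to 12 when irrigated, against 284 and 26 over 12 arrays.

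Leaf and other tissue markers were available only where the study's lists named them. The leaf list held 2 probe sets, with summed signals of 243 to 1606 in Vagad under drought, 156 to 393 in irrigated Vagad, 415 to 431 in RAHS-14 under drought and 253 to 400.1 in irrigated RAHS-14. Rubisco activase of this list was below the array median on all 10 arrays, so leaf identity rests on few markers here. The list of other tissues held 8 probe sets, of which 6 were tested and 0 were called in any comparison over 12 arrays. Its summed signals were 8213 to 18439 in Vagad under drought, 12586 to 13836 in irrigated Vagad, 14191 to 15126 in RAHS-14 under drought and 12111 to 13018 in irrigated RAHS-14. After normalization, Vagad drought plants 1 and 2 were both above the 10 other plants for 3 of the 8 and both below them for 1, and neither held for 4. Of the probe sets annotated as protease inhibitor, seed storage or lipid transfer family, Ghi.6470.1.S1_s_at had signals of 545 and 742 in these plants, against 0.676 to 32.9 in all others. GhiAffx.44558.1.S1_s_at, of the same family, had 1839 and 1511, against 3025 to 6193. The list was drawn by keyword and cannot be taken as specific to other tissues. GbaAffx.6.1.S1_s_at, annotated as a fiber protein, had signals of 6094 to 10358 on the 10 arrays. Over the 10 arrays 2 of the 6 were called lower under drought in Vagad, where 5.77% of all probe sets were. In RAHS-14, 1 was called higher and 1 lower, where 3.46% and 4.63% of all probe sets were. Their part in the asparagine results was not tested.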

How the data were processed

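The Affymetrix Cotton Genome array was used on leaf RNA of 12 *G. herbaceum* plants. The deposited intensity values are MAS5 signals made by the authors, linear and scaled per array. Detection calls and the filtered RMA values of the methods were not used here. Groups were taken from the sample titles, and the accession names from the study. Array medians spanned 2.50 (log2), so arrays were quantile normalized, signals under the median of the arrays' 20th percentiles (17.2 for 12 arrays, 10.3 for 10) were set to that floor, and values were put on the log2 scale. A probe set was tested if it exceeded the median of its array on 3 arrays or more, 12883 over 12 arrays and 12613 over 10. The 4 group means were fitted with limma 3.58.1 in R 4.3.3, and its p-values were Benjamini-Hochberg adjusted across every tested probe set. A simulated data set with known changes was used to check the script. Plots were made with matplotlib 3.10.9.

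Members, lists and tests were chosen with earlier results of these data known. All members of the rule are named, with at most 4 called genes of each keyword list (nitrate and ammonium, amino acid transporters, aminotransferases, senescence-associated) and the 5 annotated probe sets most correlated with each family. Leaf and other tissue markers were drawn from the same annotation. For same-numbered arrays of different groups, 0 of 18 pairs had a residual correlation over 0.1, so numbers were not treated as pairs. Alternatives were the 10 arrays, the 2 groups alone, other scalings, an offset of 16, no filter, a trended and robust spread, a replicate block, the methods' t-test and each array left out. Arrays have no sequencing depth, and their number limits the precision. The p-values measure the spread between plants.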

Additional observations from a re-analysis of the deposited data

Results flagged for a closer look

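The drought response differed between the accessions in 3 of the 7 tested members when Vagad drought plants 1 and 2 were left out. The difference of the drought differences, Vagad minus RAHS-14, was 1.45 ± 0.17 for the asparaginase Gra.2835.2.S1_s_at, 1.25 ± 0.12 for the asparaginase Ghi.10091.1.A1_s_at and -1.50 ± 0.15 for the synthase Gra.1614.2.S1_x_at, where 8.75% of all probe sets were called over 10 arrays. Over 12 arrays the same values were 2.73 ± 0.66, 1.00 ± 0.31 and -1.87 ± 0.42, and 0 members were called where 0.124% of all probe sets were. At an unadjusted p under 0.05, limma had 4 of the 7 over 12 arrays, where 13.6% of all probe sets were under it. These differences share arrays with the comparisons that chose the members, and the 10-array values rest on a single Vagad drought plant.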

How the results depend on the processing

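Under drought, 1 synthase was called between the accessions over 12 arrays. The count was 0 with the 2 groups alone, with the replicate block and with the methods' t-test after Benjamini-Hochberg. It was 3 with arrays aligned at their medians and 0 to 3 with each plant left out. Of 12883 probe sets, 284 were called over 12 arrays, 0 with the 2 groups alone and 15 with the block. The adjusted t-test called 2 and the aligned arrays 5391. With each plant left out 10 to 5875 were called, the most without Vagad drought plant 3. Nothing is read from the synthase counts. With the block, Gra.1614.2.S1_x_at kept -1.58 with an adjusted p of 0.0892. For drought in Vagad, the count of 2 members became 0 with the 2 groups alone and with the adjusted t-test. It was 1 with the block, 5 with arrays aligned at their medians and 0 to 5 with each plant left out. Of 12883 probe sets, 489 were called over 12 arrays, 0 with the 2 groups alone and 7 with the adjusted t-test. The block called 154 and the aligned arrays 7623. With each plant left out 50 to 5806 were called, the most without Vagad drought plant 3. Nothing is read from these member counts. For drought in RAHS-14, the count of 0 became 1 over 10 arrays, with the 2 groups alone and with the t-test, adjusted or not, and 0 to 1 with each plant left out. Of 12883 probe sets, 114 were called for drought in RAHS-14 over 12 arrays and 759 with the 2 groups alone. The t-test called 750 unadjusted and 713 adjusted, and 27 to 441 were called with each plant left out. The irrigated asparaginase count was 0 in every setting.

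Some directions turned. The Vagad drought difference of Ghi.10091.1.A1_s_at was -0.89 with arrays aligned at their medians, where the median of all probe sets was -1.83. Under drought between the accessions, Ghi.1436.1.A1_s_at was 0.84 over 10 arrays and 0.039 with signals as deposited, and Gra.1559.1.A1_at was 0.97 over 10 arrays, and ran between -2.15 and 1.20 with each plant left out, the highest without Vagad drought plant 2. The causes were not tested. The block had no pairing behind it, and with 3 plants a group the number of arrays limits what could be called.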
